A study of Mus musculus with 34 samples.

Results

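The libraries described here are 6 polyA-selected liver RNA-seq libraries, 3 amplified with a fast PCR temperature ramp and 3 with a slow ramp, chosen by the ramp and selection fields of the labels out of 34 libraries in the series. The 3 libraries at each ramp were 1 library of short, 1 of medium and 1 of long fragments, so the comparison consists of 3 fast-slow pairs matched by fragment length. The series asked how rRNA removal, ramp rate and fragment length affect RNA-seq of the same RNA. The RNA of every liver library came from the liver of a single animal, a C57BL/6J wild type aged 12 weeks, so the libraries are technical preparations, and every spread and p-value below concerns library preparation and not animals. The 9 polyA libraries (slow, medium and fast ramp at each fragment length) shared 200 ng of input RNA, the TruSeq Stranded mRNA kit, adapters with unique molecular identifiers (UMIs), 13 PCR cycles and batch 1. PolyA selection keeps RNA that carries a poly(A) tail. Ramp rates and fragment lengths were given by the labels only as slow, medium or fast and short, medium or long, and a library is named below by its ramp and then its length (the slow long library).

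During PCR the thermocycler moves between the temperatures at which strands separate, primers bind and strands are copied, and the ramp rate is the speed of these moves. Strands rich in G and C pair more tightly and separate at higher temperatures than strands rich in A and T, and PCR is known for copying fragments of extreme base composition less evenly. In liver, G- and C-poor transcripts include those of the mitochondrial genome and of the major urinary proteins (MUPs), whereas many transcription factor transcripts are rich in G and C.

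The 6 libraries held 23.5 to 37.8 M counts (M, 1e+06 counts), and the 3 medium-ramp polyA libraries 24.99 to 41.4 M. Cardiac genes were near 0 in the polyA libraries (Myh6, 0 to 2 counts), and albumin (Alb) held 66400 to 72300 counts per M of the raw library total. The label fields disagreed on the sex of the animal (male or female). The Y-linked gene Ddx3y was at 41 to 72.4 counts per M of the raw library total and Xist at 2 to 4 counts in each library. From here on, CPM means counts per M of the normalised library total. The summed level of 7 Kupffer cell markers was 136 CPM in each slow library and 138 to 141 CPM in the fast ones. For 7 sinusoidal endothelial markers it was 165 to 173 CPM against 166 to 175 CPM.

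Between the ramps 2263 of 14629 genes tested (15.5%) were at an unadjusted p under 0.05 by edgeR, and 42 passed after adjustment (0.287%). Of the 42, 20 were higher with the fast ramp (0.137%) and 22 lower (0.15%). The test was edgeR's quasi-likelihood test with fragment length as a covariate, at an adjusted p under 0.05. Among the genes that rose were Gapdh (glycolysis), Ambp and Cpn1 (secreted plasma proteins) and Rpl15 and Rpl18 (ribosomal proteins). Among those that fell were the mitochondrially encoded mt-Nd6 and mt-Nd4l, the respiratory chain genes Uqcrb and Cox5a and the histone genes Hist2h2aa1 and H2afz. The median size of the change was 0.18 log2 units among the genes that rose and 0.29 among those that fell, against 0.08 over all genes tested. The 4 largest fitted values belonged to Mup13 and to Gm49395, Gm10146 and AC129217.1, which were at or near 0 in several libraries. Of the 42 genes, 38 had the same sign in all 3 pairs. The biological coefficient of variation fitted by edgeR was 0.0404 over 4 residual degrees of freedom. No combination of ramp and length was repeated, so this value holds variation between preparations together with ramp changes that differed between lengths. The number passing moved with single libraries: it was 432 without the fast long library, 168 without the slow long, 15 without the medium-ramp long, 7 without the slow medium, 9 without the fast short and 0 (edgeR) without either the fast medium library (1454 genes at an unadjusted p under 0.05) or the medium-ramp medium library (2018 genes). Without all 3 long-fragment libraries 871 genes passed, and with no length covariate 0 passed (240 at an unadjusted p under 0.05).

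Gapdh, the glycolytic enzyme often used as a reference gene, was measured at 865, 846 and 862 CPM in the slow long, medium and short libraries. In the fast libraries of the same lengths it was at 976, 1022 and 1008 CPM. The slow and fast values did not overlap, and the fitted log2 change was 0.22 (SE 0.0242, adjusted p = 0.00848 by edgeR). The medium-ramp libraries held 947, 974 and 999 CPM, which lies between the slow and the fast library at each length. Ambp, which encodes the precursor of the plasma proteins alpha-1-microglobulin and bikunin, rose from 1831, 1982 and 2021 CPM to 2019, 2255 and 2284 CPM (log2 change 0.17, SE 0.0175, adjusted p = 0.00848 by edgeR). Each fast library was above its slow partner, although the fast long library fell within the range of the slow libraries.

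Among ribosomal protein genes, Rpl15 was at 203, 119 and 109.5 CPM in the slow long, medium and short libraries and at 218, 149 and 136 CPM in the fast ones (log2 change 0.24, SE 0.0425, adjusted p = 0.0473 by edgeR). Its ratio was smaller in the long pair (0.10 on the log2 scale) than in the medium (0.32) and short pairs (0.31). Rpl18 rose by 0.16, 0.20 and 0.21 in the long, medium and short pairs. In the opposite direction, Rpl39, a small protein of the large ribosomal subunit, was at 97.4, 83.9 and 82.4 CPM in the slow libraries and 82.8, 68.8 and 64.2 CPM in the fast ones (log2 change -0.29, SE 0.0352, adjusted p = 0.0137 by edgeR). Rps24 and Rps25 also fell, by 0.17 and 0.19 in the fit. Of 81 ribosomal protein genes tested, 3 rose and 3 fell, beside 0.137% and 0.15% of all genes tested, and the list's median ratio was -0.04, 0.00 and -0.00 in the long, medium and short pairs. Ribosomal protein genes have many processed pseudogenes with near-identical sequence, and how the authors' quantification divided reads among them was not tested.

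The other 7 named protein-coding genes that rose had log2 changes of 0.18 to 0.20. Car5a (mitochondrial carbonic anhydrase) stood at 60.4, 63.9 and 64.6 CPM in the slow long, medium and short libraries and at 67.5, 72.9 and 76.9 CPM in the fast ones. Clcn2, a chloride channel gene, went from 44.2, 54.7 and 57.7 CPM to 49.2, 64.3 and 66.4 CPM. Pmvk, an enzyme of cholesterol synthesis, went from 34.4, 37.3 and 37.4 CPM to 39.0, 43.6 and 42.1 CPM. All fast values of Car5a and Pmvk lay above all slow values, whereas the fast long value of Clcn2 fell inside the slow range. Haao, an enzyme of tryptophan breakdown, rose from 449, 474 and 492 CPM to 502, 543 and 553 CPM, with no overlap. Cpn1, a plasma carboxypeptidase subunit, rose by 0.11, 0.23 and 0.19 in the long, medium and short pairs. Ubb, a polyubiquitin gene, rose by 0.28, 0.16 and 0.11, and Cox7c, a subunit of cytochrome c oxidase, by 0.17, 0.17 and 0.21. Adjusted p-values of these 7 genes by edgeR lay between 0.0212 (Haao) and 0.0473 (Car5a, Clcn2, Pmvk and Ubb). Further genes that passed, with smaller changes, were Ahsg, Pck1, Slc38a3, Dgat2 and Cyp2d9, with log2 changes of 0.10 to 0.14.

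Respiratory chain genes were among those that fell. The mitochondrially encoded mt-Nd6 (complex I, M:13552-14070 on the minus strand, GRCm38) was at 27.9, 8.07 and 4.55 CPM in the slow long, medium and short libraries and at 19.5, 5.36 and 3.39 CPM in the fast ones. Its log2 change was -0.52 (SE 0.0704, adjusted p = 0.0234 by edgeR). Each fast value was below its slow partner, while the level also differed several-fold between fragment lengths. mt-Nd6 lies on the strand opposite to the other mitochondrial mRNAs and its annotated end overlaps mt-Nd5, so if the authors' counting did not use strand, reads of the opposite strand would be included. mt-Nd4l, also of complex I, was at 809, 514 and 566 CPM in the slow libraries and 685, 404 and 458 CPM in the fast ones (log2 change -0.30, SE 0.0395, adjusted p = 0.0234 by edgeR). It was the only one of the 42 genes that also passed when the fit held just the 6 fast and slow libraries. Of the nuclear genes, Uqcrb (complex III) fell from 161, 114 and 110.0 CPM to 139, 93.8 and 84.6 CPM, and Cox5a by 0.22 in the fit.

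The histone gene Hist2h2aa1 was at 9.72, 5.10 and 6.63 CPM in the slow long, medium and short libraries and at 6.07, 3.19 and 3.08 CPM in the fast ones. Its log2 change was -0.82 (SE 0.0942, adjusted p = 0.0118 by edgeR). The medium-ramp libraries stood above both at every length, at 13.2, 7.31 and 8.25 CPM. Hist2h2aa2, a neighbouring copy with a similar sequence, was listed at 0 in all 3 long-fragment libraries and had ratios of -0.22 and 0.64 in the medium and short pairs, and reads may be divided between the copies. H2afz, which encodes the histone variant H2A.Z, showed the same order, with 47.8, 35.0 and 28.5 CPM at the slow ramp, 37.9, 29.6 and 25.5 CPM at the fast ramp and 53.6, 38.8 and 33.8 CPM at the medium ramp. H2afz passed with a log2 change of -0.25 (adjusted p = 0.0432 by edgeR). Mrpl36, a mitochondrial ribosomal protein gene, was at 16.1, 17.3 and 17.99 CPM with the slow ramp, at 12.7, 13.9 and 14.5 CPM with the fast ramp and at 16.5, 18.8 and 17.7 CPM with the medium ramp.

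The co-chaperone genes Dnajb9 and Dnajc19 also fell. Dnajb9, an endoplasmic reticulum co-chaperone, was at 37.0, 26.6 and 23.9 CPM in the slow long, medium and short libraries and at 31.5, 22.4 and 18.3 CPM in the fast ones. Dnajc19, of the mitochondrial import motor, was at 35.1, 37.3 and 37.4 CPM against 28.6, 29.9 and 32.6 CPM, without overlap. Prdx1, Pgrmc1, Serbp1, Mpc2 and Fdx1 passed with log2 changes of -0.15 to -0.24. Mup11, a gene of the pheromone-carrying MUPs, fell from 643, 849 and 739.7 CPM to 325, 432 and 596 CPM (log2 change -0.77, SE 0.134, adjusted p = 0.0473 by edgeR). Mup18, of near-identical sequence, was at 1729.8, 82.5 and 35.2 CPM in the slow libraries and at 2312, 306 and 55.5 CPM in the fast ones, and did not pass (adjusted p = 0.107 by edgeR). Mup13 passed with values of 0.968, 13.8 and 75.6 CPM at the slow ramp and 2.09, 0.131 and 0 CPM at the fast ramp, so its pairs differed in sign. Summed over the 20 MUP genes tested, the level was 18940.0, 11120.0 and 9775 CPM in the slow long, medium and short libraries and 19360.0, 9852 and 8570.0 CPM in the fast ones, so the sum differed less than Mup11. How reads were divided among these near-identical genes was not tested.

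**Figure D1:**
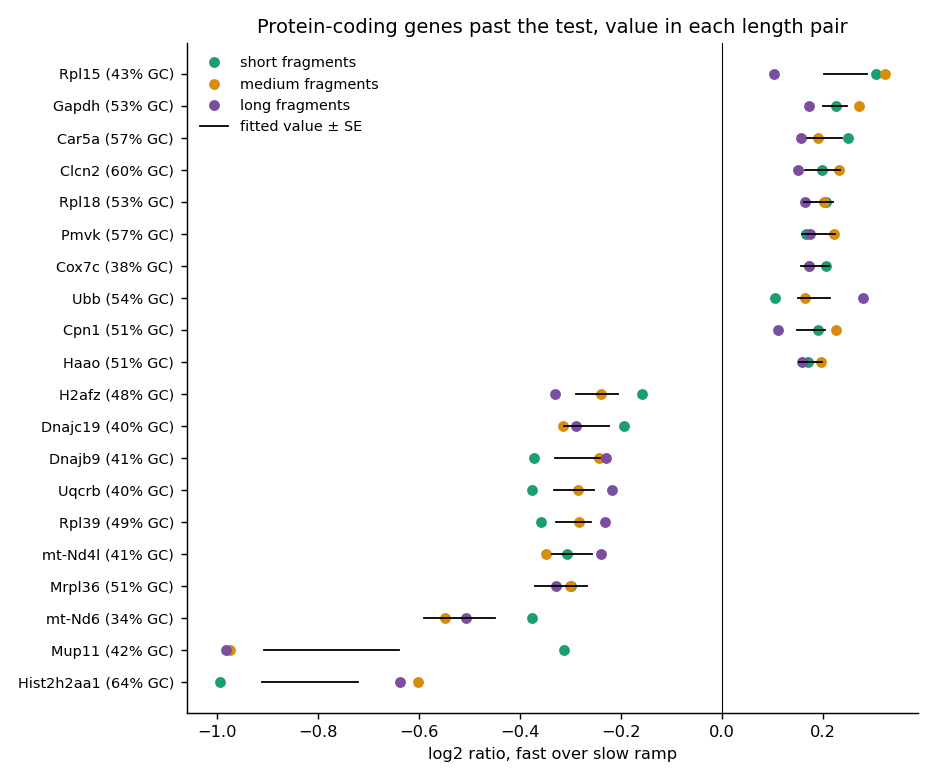
Log2 ratio of fast over slow normalised CPM (horizontal axis) in the short, medium and long fragment pairs for the 20 protein-coding genes named by the selection rule, with the fitted value ± SE as a line; GC percent of the transcript is given beside each gene. The selection rule required the same sign in all 3 pairs, so the 10 genes above lie right of 0 and the 10 below left of 0. Hist2h2aa1 and Mup11 lie farthest left by the fitted value.

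Base composition differed between the genes that rose and those that fell. The median GC content of the longest annotated transcript was 53.4% for the 20 genes that rose and 43.2% for the 22 that fell, against 49.6% over all genes tested. Median transcript length was 1817 and 1026 bases, against 3184 bases over all. Single genes departed from this, and the start of the coding sequence (60 bases, capitals marking G and C) is shown for the named protein-coding genes of lowest and highest transcript GC in each direction, because they show how far composition ranged among genes moving the same way.
Cox7c (rose): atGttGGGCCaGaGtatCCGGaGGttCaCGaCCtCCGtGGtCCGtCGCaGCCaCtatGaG
Clcn2 (rose): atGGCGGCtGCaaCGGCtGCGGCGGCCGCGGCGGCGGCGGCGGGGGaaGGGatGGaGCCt
mt-Nd6 (fell): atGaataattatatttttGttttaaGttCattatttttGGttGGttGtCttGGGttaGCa
Hist2h2aa1 (fell): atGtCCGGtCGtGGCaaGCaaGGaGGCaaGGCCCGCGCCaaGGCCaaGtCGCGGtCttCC
The shown bases were 60% GC in Cox7c, 80% in Clcn2, 25% in mt-Nd6 and 66.7% in Hist2h2aa1. The sequences are from the GENCODE M21 transcripts of GRCm38, written 5′ to 3′ in the direction of transcription, for Cox7c at 13:86044816-86046904 (minus strand), Clcn2 at 16:20702964-20717746 (minus), mt-Nd6 on the mitochondrial genome (minus) and Hist2h2aa1 at 3:96245497-96246082 (plus). Cox7c counted as G- and C-poor by its longest transcript (38.4%), whereas the coding sequence of its principal isoform was 50.3% GC. Hist2h2aa1, whose transcript was 63.7% GC, fell by more than the G- and C-poor mt-Nd6 (34.1%). With a GC correction of each library, 29 of the 42 genes still passed, 12 of those that rose and 17 of those that fell, among them Gapdh, Hist2h2aa1 and Rpl39. The change became smaller by over 1.5 times in 4 of the 13 genes that no longer passed and in 3 of the 29 that did, and none reversed. The 4 were Serbp1 (log2 change of -0.18 before and -0.10 after the correction), Dgat2 (0.14 and 0.09), Pck1 (0.10 and 0.07) and Pmvk (0.19 and 0.13). The 3 were Slc38a3 (0.12 and 0.06), Ahsg (0.10 and 0.06) and Prdx1 (-0.16 and -0.10). Cox5a, Cyp2d9, Mpc2, Rps24, Dnajc19, Ubb, Car5a and Clcn2 also no longer passed.

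Within each fragment length the ratio was related to GC content, and the relation differed between the lengths. Over 9215 genes with a GC value and a mean of at least 5 CPM, the median log2 ratio in the short pair climbed from -0.15 for genes of 35 to 40% GC (n = 502) to 0.15 for genes of 60 to 65% (n = 272). In the medium pair it went from -0.13 in the first of these bins to 0.09 at 55 to 60% GC (n = 1613) and 0.08 at 60 to 65%. In the long pair it was flat at low and middle GC (0.03, 0.02, 0.01 and 0.01 in the 4 bins from 35 to 55%) and then dropped to -0.02 and -0.12 in the bins from 55 to 65%. Among the 286 genes above 60% GC, 261 were higher with the fast ramp in the short pair and 213 in the medium pair, but 52 in the long pair. Among the 521 genes at or below 40% GC, 45 were higher with the fast ramp in the short pair, 44 in the medium pair and 318 in the long pair. Genes share their library within each pair and are not replicates, so these counts describe 6 libraries and carry no test.

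**Figure D2:**
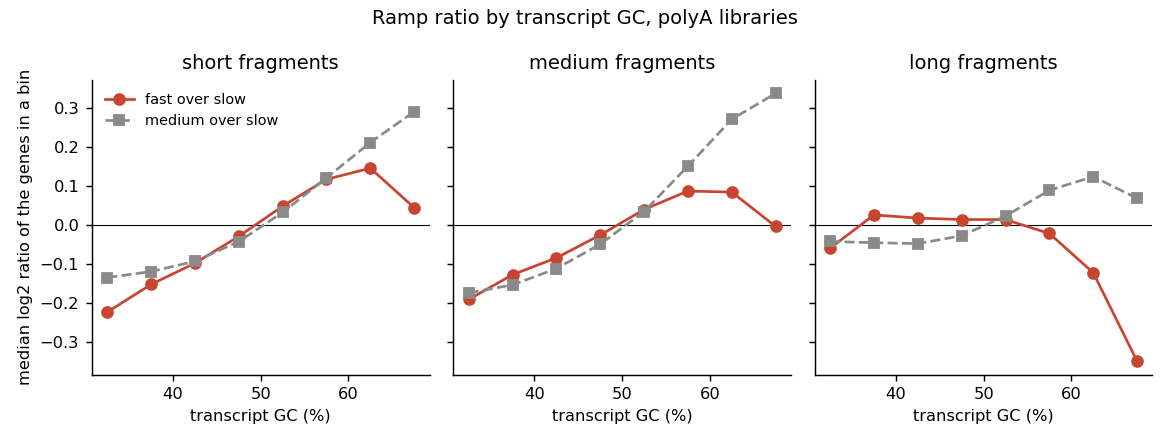
Median log2 ratio of normalised CPM (vertical axis) against transcript GC in bins of 5 percentage points (horizontal axis), for genes with a mean of at least 5 CPM, in the short, medium and long fragment libraries; circles are fast over slow, squares medium over slow, with both ratios using the same slow libraries. In the short and medium pairs the fast-over-slow line climbs with GC up to 60 to 65% and 55 to 60% GC and is lower in the last bin (0.04 and -0.00), and in the long pair it bends down above 55% GC; the end bins hold 19 and 14 genes.

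The relation can be followed in single genes at each end of the GC range, taken as the 8 protein-coding genes with the highest CPM above 60% and at or below 40% GC, a choice made after the pattern was seen. Col18a1, a collagen gene of 60.8% GC, was at 876 CPM in the slow and 865 CPM in the fast long library. In the medium pair it was at 1077 and 1190.0 CPM and in the short pair at 1096 and 1278 CPM. Igfbp2, which encodes a secreted binding protein of insulin-like growth factors, had log2 ratios of -0.01, 0.17 and 0.24 in the long, medium and short pairs, and Fkbp8, a mitochondrial chaperone gene, -0.15, 0.11 and 0.21. The ratio was thus lowest in the long and highest in the short pair for all 3. Cebpa, a hepatocyte transcription factor gene without introns, had ratios of -0.16, -0.07 and -0.03, so it was no higher with the fast ramp at any length. At the low end, mt-Co1 of complex IV was at 21284 and 21319 CPM in the slow and fast long libraries, at 14107 and 12798 CPM in the medium pair and at 12936 and 11423 CPM in the short pair. Tdo2, the first enzyme of tryptophan breakdown, had ratios of 0.03, -0.11 and -0.16. None of these 6 genes passed the test (adjusted p from 0.110 to 0.642 by edgeR).

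**Figure D3:**
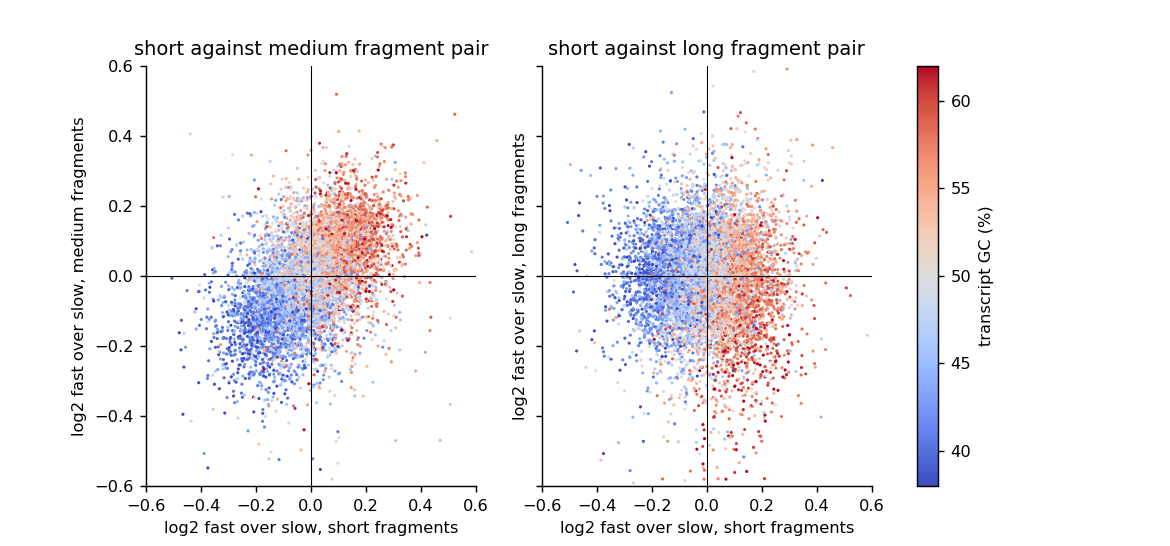
Log2 fast over slow of the short fragment pair (horizontal axis) against the medium pair (left) and the long pair (right), 1 point per gene with a mean of at least 5 CPM, coloured by transcript GC; 75 of 9215 genes lie outside the axes at 0.6. Genes of high GC lie to the upper right and genes of low GC to the lower left on the left side, whereas high-GC genes spread downwards on the right side.

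Across the same genes, Spearman's rho between the ratio and GC was 0.66 in the short pair, 0.58 in the medium pair and -0.15 in the long pair. A straight line in GC accounted for 28.5%, 13.8% and 1.09% of the variance of the ratio, and for 11.4%, 5.5% and 0.763% over all 14585 genes with a GC value. The ratios of the medium and short pairs correlated across 9226 genes (Pearson's r 0.41), and less so those of the long with the medium pair (0.11) and of the long with the short pair (0.11). After removal of the straight line in GC these 3 values were 0.27, 0.15 and 0.20. Without this subtraction, Spearman's rho was 0.55, 0.07 and -0.02 in the same order, and Pearson's r over all 14629 genes was 0.23, 0.06 and 0.03. The pairs share no library, but they share the RNA and the gene set, so these correlations are descriptions across genes.

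Summarised as 1 value per library, the GC slope is the least-squares slope over 14585 genes of the log2 level, relative to the mean of the 3 ramp libraries of that length, per 10 percentage points of GC. It was -0.0812, -0.0792 and -0.0110 in the slow short, medium and long libraries. In the fast ones it was 0.0379, 0.00889 and -0.0473. The fast library therefore had the higher slope in 2 of 3 pairs, by 0.119 (short) and 0.0881 (medium), and the lower one in the long pair, by -0.0364. The mean difference of 0.0569 was smaller than its SD over the pairs (0.0823, n = 3), and the two-sided exact permutation of ramp labels within lengths gave p = 0.306 (adjusted p = 0.356 over 7 measures; smallest possible 0.00926). The medium-ramp library had the highest slope at each length, 0.0433, 0.0703 and 0.0583 for short, medium and long fragments, so the slopes did not follow the order slow, medium, fast.

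**Figure D4:**
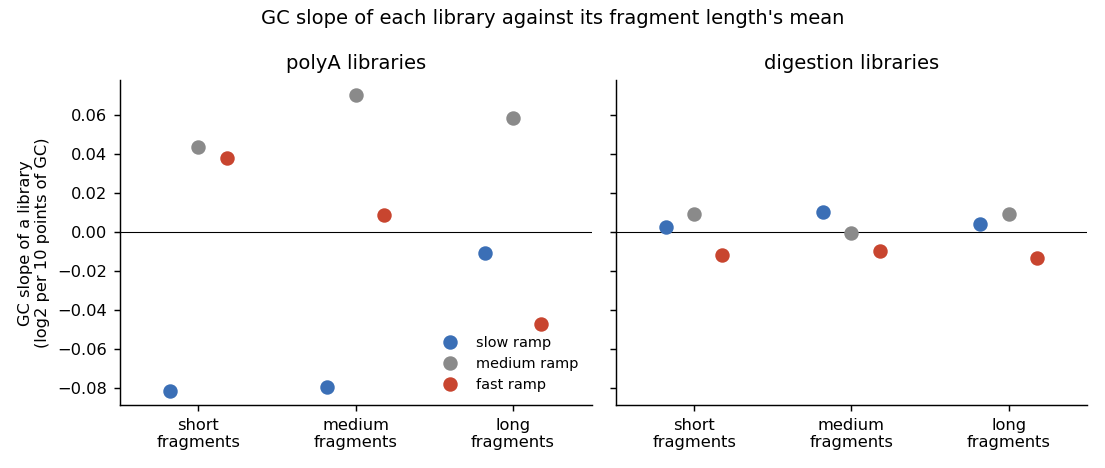
GC slope of each library (vertical axis, log2 per 10 points of GC, relative to the mean of the 3 ramp libraries of its length) by fragment length, for polyA (left) and digestion (right) libraries, 1 point per library. The polyA slow libraries are lowest for short and medium fragments, the fast library is lowest for long fragments, and the digestion libraries all lie near 0.

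With GC held in the same fit, the relation to transcript length had the same sign in the 3 pairs, also under each alternative that kept all 3 lengths. The slope on length alone changed sign between pairs over genes of at least 5 CPM (-0.00613, -0.00857 and 0.0322 in the short, medium and long pairs), over protein-coding genes and with ranks. With GC held, the slope per doubling of transcript length was higher in the fast library by 0.0205, 0.0241 and 0.0232 in the short, medium and long pairs (mean 0.0226, SD 0.00186, n = 3), with p = 0.0278 by the exact permutation and 0.194 after adjustment over 7 measures. The mean was 0.0129 over protein-coding genes alone and 0.0106 with the length of the coding sequence, and the pairs were less even over genes of at least 5 CPM (0.0177, 0.00993 and 0.0285). The percent of counts in mitochondrially encoded genes was 3.17, 3.57 and 5.04 in the slow short, medium and long libraries and 2.81, 3.22 and 4.97 in the fast ones. It was lower with the fast ramp in 3 of 3 pairs (mean difference -0.258 percentage points, SD 0.165), which did not pass (exact permutation p = 0.0926, adjusted 0.238). The share in the 100 highest genes (p = 0.556), the count-weighted mean GC (p = 0.213), the slope on length alone (p = 0.102) and the GC slope with length held (p = 0.269) did not pass by the same exact permutation.

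The gene lists of lowest GC content had the lowest medians in the short and medium pairs. The 13 mitochondrially encoded mRNAs (median 37.1% GC) had median log2 ratios of -0.23, -0.16 and -0.05 in the short, medium and long pairs. Of them 2 fell, and 10 were lower at an unadjusted p under 0.05 beside 1140 of all 14629 genes tested. Within the list, mt-Cytb of complex III was at 7477, 5363 and 5151 CPM in the slow long, medium and short libraries and at 7223, 4890.0 and 4401 CPM in the fast ones (adjusted p = 0.0562 by edgeR). The 20 MUP genes (41.9% GC) had medians of -0.22, -0.16 and 0.01. Of them 2 fell, beside 0.15% of all genes tested, 11 were at an unadjusted p under 0.05, and DESeq2 called 2 of the 11 to which it gave an adjusted p. DESeq2 gives none to genes of lower mean count, here all but 2434 of the genes tested. Pmvk, at a mean of 39.0 CPM, had none. Of the 2434 genes DESeq2 called 9.16%. Of 67 cytochrome P450 genes, which oxidise drugs and steroids, 1 rose (Cyp2d9) and none fell by edgeR, beside 0.137% and 0.15% of all genes tested. Their medians were -0.07, -0.05 and 0.01. At an unadjusted p under 0.05, 9 of the 67 were higher and 16 lower, beside 1123 and 1140 of all 14629 genes tested. DESeq2 called 12 of the 34 with an adjusted p. Cyp3a11 had ratios of -0.17, -0.14 and 0.00 in the short, medium and long pairs and did not pass. These medians stand beside -0.00, -0.01 and 0.00 over all 14629 genes tested.

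At the G- and C-rich end, the 28 hepatocyte transcription factor genes (54.9% GC) had medians of 0.07, 0.04 and -0.04 in the short, medium and long pairs. Rxra, a nuclear receptor gene, had ratios of 0.12, 0.13 and -0.00. The 24 immediate early genes (55.1% GC) had medians of 0.10, -0.02 and -0.13. In neither list did a gene pass by edgeR, with 7 and 1 genes at an unadjusted p under 0.05, beside 15.5% of all genes tested. DESeq2 called 1 of the 15 transcription factor genes to which it gave an adjusted p, and gave one to only 1 immediate early gene, which it did not call. Apoe, a plasma apolipoprotein gene of 59.5% GC, was at 13428, 13681 and 13632 CPM in the slow long, medium and short libraries and at 11979, 13591 and 14772 CPM in the fast ones. Its fitted change was -0.02, since the pairs differed in sign. Against 0.137% of all genes that rose, 3 of the 35 plasma protein genes rose and none fell by edgeR (11 higher and 5 lower at an unadjusted p under 0.05, 8 of 35 called by DESeq2). Of 18 glucose metabolism genes 2 rose (Gapdh and Pck1, the latter the entry enzyme of gluconeogenesis) and none fell by edgeR, with 8 higher and 0 lower at an unadjusted p under 0.05 and 5 of 17 with an adjusted p called by DESeq2. None of 10 urea cycle genes, 23 fatty acid oxidation and ketone genes or 311 zinc finger genes passed by edgeR. At an unadjusted p under 0.05 these 3 lists held 4, 8 and 30 genes. DESeq2 called 2 of 9 urea cycle genes, 2 of 22 fatty acid oxidation and ketone genes and 0 of 9 zinc finger genes, counting those with an adjusted p. Of 22 cholesterol synthesis genes 1 rose (Pmvk). Of 79 nuclear oxidative phosphorylation genes, Cox7c rose and Uqcrb and Cox5a fell, beside 0.15% of all genes that fell, with 10 higher and 22 lower at an unadjusted p under 0.05 and 13 of 66 with an adjusted p called by DESeq2. Of 10 replication-dependent histone genes tested, 1 fell (Hist2h2aa1).

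**Figure D5:**
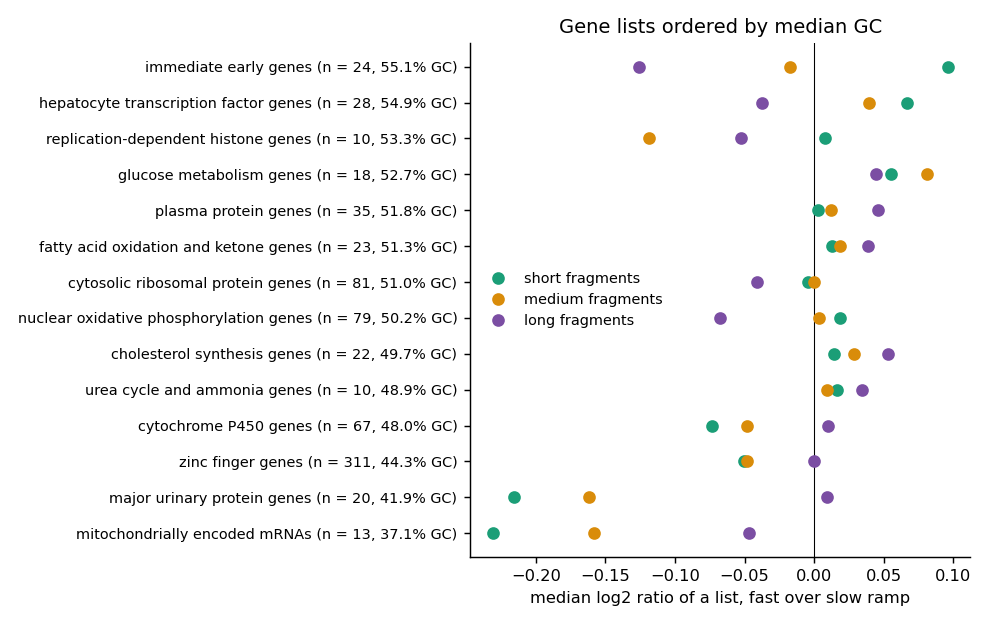
Median log2 ratio of fast over slow normalised CPM (horizontal axis) of each gene list in the short, medium and long fragment pairs, lists ordered from high to low median GC with the number of genes tested. The 2 lists of lowest GC, MUP genes and mitochondrially encoded mRNAs, lie farthest left in the short and medium pairs.

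A change of at least 1.2-fold in the same direction in all 3 pairs was found for 91 genes (0.622%), of which 32 were higher (0.219%) and 59 lower (0.403%) with the fast ramp. The ratios had the same sign in all pairs for 33.3% of genes, 2420 higher and 2451 lower. The 91 genes had low counts: the median level was 1.09 CPM for the higher and 0.821 CPM for the lower genes, against 11.04 CPM over all. Of the 59 lower genes 23 were pseudogenes and 27 protein-coding, and of the 32 higher genes 28 were protein-coding and 0 pseudogenes. With a mean of at least 5 CPM, 19 genes were left, 7 higher and 12 lower. Only 6 of the 91 also passed edgeR's test: Hist2h2aa1, Mup11, mt-Nd6 and Mrpl36, which fell, and AC160336.1 (a long noncoding RNA) and Gm49395, which rose and were named after their values were seen. AC160336.1 was at 4.49, 2.19 and 1.67 CPM in the slow long, medium and short libraries and at 6.77, 3.92 and 2.85 CPM in the fast ones.

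No gene of another type with the same sign in all 3 pairs and a mean of at least 5 CPM passed the test, so those named here are the 3 in each direction whose smallest ratio over the pairs was largest. Hnf4aos, an antisense transcript at the Hnf4a locus, was at 4.44, 4.87 and 3.81 CPM in the slow long, medium and short libraries and at 5.87, 6.51 and 5.42 CPM in the fast ones (adjusted p = 0.0908 by edgeR). Its slow and fast values did not overlap. Snhg6, a small nucleolar RNA host gene, was at 9.68, 7.84 and 7.31 CPM against 6.42, 6.28 and 5.93 CPM (adjusted p = 0.0606 by edgeR), also without overlap. The long noncoding RNA Gm20186 had ratios of 0.33, 0.86 and 0.35 in the long, medium and short pairs, and the immunoglobulin alpha constant gene Igha 0.30, 0.37 and 0.26. Gm28438, a pseudogene on chromosome 1, was at 656, 3.73 and 8.36 CPM in the slow libraries and was listed at 0 in the fast long and short libraries and at 2.46 CPM in the fast medium library. It met the mean of at least 5 CPM only through the slow long library. The processed pseudogene Gm28900 was at 4.22, 6.79 and 9.86 CPM against 1.58, 2.69 and 6.33 CPM. How reads were divided between such pseudogenes and their parent genes was not tested.

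Against the slow ramp more genes passed at the medium than at the fast ramp. At the medium ramp 845 of 14629 passed (5.78%) in the same fit, 538 higher and 307 lower. Both comparisons use the same 3 slow libraries and are therefore not independent. Between the fast and medium ramps themselves 28 of 14629 genes passed in the same fit, 3 higher and 25 lower with the fast ramp. The log2 changes of fast and of medium against slow were 0.22 and 0.18 for Gapdh, -0.29 and -0.32 for Rpl39, -0.18 and -0.00 for Serbp1 and -0.82 and 0.42 for Hist2h2aa1.

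The ramp change was set against that in the 9 rRNA digestion libraries, made from the same liver RNA with another kit in batch 2, where enzymes degrade rRNA in place of capture by the poly(A) tail. Within the digestion libraries 59 of 15199 genes passed between fast and slow (0.388%), 13 higher and 46 lower, by the same test. The interaction passed for 38 of 15589 genes (0.244%), 18 more positive and 20 more negative in polyA, by edgeR's test of the difference itself. That count was 1 with pull-down in place of digestion and 2 to 336 leaving out 1 library. Of the 42 genes above, 17 passed the interaction test, 16 of them in the direction of their polyA change. The 42 genes were chosen on the polyA change that enters the difference. For mt-Nd6 the log2 change was -0.52 in polyA and 0.14 in digestion (adjusted p of the difference 0.00487), and for Gapdh 0.22 and 0.03 (adjusted p 0.0293). For mt-Nd4l it was -0.30 and -0.24, and the difference did not pass (adjusted p 0.941). The fast-minus-slow GC slope in digestion was -0.0148, -0.0201 and -0.0176 for short, medium and long fragments. It differed from the polyA mean by 0.0744, which did not pass (two-sided exact permutation of the method labels over 3 against 3 pairs, p = 0.4; smallest possible 0.1). In the rRNA pull-down libraries, also of batch 2, the slope difference was 0.0262, 0.134 and -0.720 in the same order of lengths, with the polyA mean higher by 0.244 (p = 0.7 by the same exact permutation), and the slow long pull-down library held only 1.13 M counts. Selection method, kit and batch cannot be told apart in these comparisons.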

How the data were processed

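The deposited values are estimated (expected) counts per gene, made by the authors, 1 column per library. The submitters' processing notes name Salmon 1.9.0, UMI-tools 1.1.1, R 4.4.0 and GRCm38, with no role or order. Whether UMI duplicates were removed, the transcript set and any correction for GC bias are not given in the sources used here, and each could change GC slopes. Estimated counts of near-identical genes depend on how the authors' quantification divided shared reads.

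The expected counts were rounded. edgeR 4.0.16 (R 4.3.3, limma 3.58.1) was run on the 9 polyA libraries with TMM normalisation, filterByExpr, the quasi-likelihood F-test, ramp and length terms and Benjamini-Hochberg adjustment over 14629 genes. The SE is the size of the log2 change divided by the square root of F. Ratios of a pair are of log2(normalised CPM + 0.5). GC and length are those of the longest GENCODE M21 (GRCm38) transcript, which may not be the authors' set. Of 51368 identifiers 50896 matched, and 14585 of 14629 genes tested had a GC value. The other 472 identifiers held at most 0.0452% of the counts of a library. Slopes and library shares were compared by two-sided exact permutation over 216 arrangements.

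Named genes were, in each direction, the 10 protein-coding genes with the largest change that passed with the same sign in all 3 pairs and a mean of at least 5 CPM, 3 genes of other types, and the 3 members of each gene list with the highest CPM, without chromosome 18 and unplaced identifiers. Other genes that passed are named after their values were seen. The libraries, gene lists and tests were chosen with earlier results of these data known. Scripts were tested on simulated data. Alternatives included DESeq2 1.42.0, other normalisations and filters, a GC correction in 20 bins, thinning to the smallest total, and leaving out each library. The labels name no separate cultures or animals, so the spread behind the p-values is technical. In the edgeR fits of the polyA libraries it holds variation between preparations together with ramp changes that differed between lengths.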

Additional observations from a re-analysis of the deposited data

Results flagged for a closer look

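The fast-minus-slow GC slope had opposite signs at different fragment lengths: 0.119 log2 units per 10 points of GC in the short pair and -0.0364 in the long pair. Each is 1 library against 1, so the difference between the lengths was not tested. The slow long library had the smallest total of the 9 polyA libraries (23.5 M counts). With all libraries thinned to that total, the values were 0.120 and -0.0372.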

How the results depend on the processing

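The 42 genes that passed became 460 with no gene filter, 102 with a mean of at least 5 CPM, 223 with DESeq2 (of 2434 genes with an adjusted p), 77 with the GC correction, 8 with the 6 fast and slow libraries alone, 0 with no length covariate and 0 with edgeR's glmTreat against 1.2-fold (240 and 192 genes at an unadjusted p under 0.05 by edgeR). Leaving out 1 library gave 0 to 432. Added after seeing the data, leaving out the 3 libraries of 1 length gave 26 (short), 3 (medium) and 871 (long). Of the 497 genes higher without the long libraries, 286 were higher with the fast ramp in the long pair, as were 145 of the 374 lower ones. Shared with the 42 were 36 of 36 with RLE size factors, 39 of 46 with library totals, 37 of 61 after thinning and 1 of 8 with the 6 libraries. DESeq2 gave an adjusted p to 29 of the 42, and all 29 passed. None of the 42 reversed under the alternatives that gave it a value, which were 15 to 22 of 22 per gene. The interaction count of 38 became 1 with pull-down in place of digestion (383 at an unadjusted p under 0.05), 64 with a mean of at least 5 CPM, 190 with DESeq2 and 2 to 336 leaving out 1 library. The 91 genes moved in all 3 pairs became 471 at 1.1-fold, 10 at 1.5-fold and 19 with a mean of at least 5 CPM. The mean GC slope difference stayed positive and did not pass under its 11 alternatives, ranging from 0.0258 (without short fragments) to 0.104 (without long fragments) for those on the slope's own scale. The 3 that leave out a length allow no exact permutation p below 0.0556, so they could not pass. The pairs by fragment length were analysed through the length term and the permutation within lengths. By replicate number, no paired analysis was possible because the fast and slow libraries carry none. With 1 library per ramp and length, no test exists within a length.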
